A study of Rattus norvegicus with 12 samples.

Results

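A set of 7 genes of renal glucose production and fructose entry were followed in the renal cortex of Zucker rats, namely Pc, Pck1, Pck2, Fbp1, G6pc, Slc37a4 and Khk. They were chosen by name for their place in these pathways, without a rule on their values, but with earlier results of these data known. All 7 listed genes were among the 13151 genes of the normalized table. Cortex RNA of male rats at 32 weeks of age was sequenced, with 4 rats in each of 3 groups. ZL were lean Zucker rats without treatment, and ZF were Zucker fatty rats without treatment, an obese strain that lacks a working leptin receptor and, by the study's account, stays nondiabetic. ZF-SGLT2i were Zucker fatty rats that ate the sodium-glucose cotransporter 2 (SGLT2) inhibitor canagliflozin in their food at 10 mg/kg/day from 24 weeks of age for 8 weeks, with their food intake adjusted to that of untreated ZF rats. The drug was given to no lean rats, so its comparison was measured in the obese genotype alone. The study's methods describe ZL rats only in an experiment with earlier kidney biopsies, and the labels do not say from which experiment the sequenced ZF rats came.

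The kidney cortex is, with the liver, a site of gluconeogenesis, the making of glucose from lactate, glutamine, glycerol and other precursors, and it does this in the proximal tubule. Pyruvate carboxylase (Pc) makes oxaloacetate in the mitochondrion, phosphoenolpyruvate carboxykinase (Pck1 in the cytosol, Pck2 in the mitochondrion) turns it into phosphoenolpyruvate, fructose-1,6-bisphosphatase (Fbp1) removes a phosphate from fructose 1,6-bisphosphate, and glucose-6-phosphatase (G6pc), fed by the glucose 6-phosphate transporter Slc37a4, releases free glucose. Ketohexokinase (Khk) phosphorylates fructose, which enters the same tubule cells and joins the pathway at the triose phosphates. Proximal tubule cells take up filtered glucose through SGLT2, the drug's target.

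Values are read counts (CPM, counts divided by library size) that the authors had scaled between rats, and dividing by a constant for the rat gave back whole reads. Reads on genes numbered 8886901 to 12210257 per ZL rat, 8824980 to 11191377 per ZF rat and 8914666 to 10293049 per ZF-SGLT2i rat. The 7 genes were well covered, from 220 reads for Pck2 in a ZL rat to 46673 for Pck1 in a ZF-SGLT2i rat. Differences are given as log2 fold changes of value + 1 from a limma fit over the 11633 genes that reached a value of 1 in at least 4 rats, and a gene was called when its Benjamini-Hochberg adjusted p over these genes was below 0.05. As one alternative, each rat was scaled to proximal tubule markers, which moved the median difference of all tested genes to 0.55 for ZF against ZL, 0.15 for ZF-SGLT2i against ZF and 0.69 for ZF-SGLT2i against ZL (9478 genes were called higher and 151 lower in the first of these). Under this scaling, the direction of a named gene turned 9 times among the 7 genes and 25 times among the others. All of these values stayed on the same side of the median of all tested genes. A single factor per rat moves nearly all genes alike, so a position relative to that median could hardly change and is no check on a difference. Single genes were also compared by a two-sided exact permutation test over the 70 ways to split 8 rats, whose smallest possible p is 0.0286. The ZF group enters the first 2 comparisons and the ZL group the first and the last, so the comparisons are not independent of each other.

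The gluconeogenic genes did not move together. Pck1 values were lowest in the lean rats and highest in the treated ones, whereas Fbp1 and Khk were lowest in ZF-SGLT2i rats. Between ZF and ZL, 1 of the 7 genes was called higher (Pck1) and 1 lower (Khk), where 18.8% of all tested genes were called, with 8.19% higher and 10.6% lower. Treatment of the ZF rats gave 1 called gene, lower (Fbp1), against 3.15% of all tested genes, 1.39% higher and 1.75% lower. The treated against the lean rats had 2 genes called higher (Pck1 and Pck2) and 2 lower (Fbp1 and Khk), against 27.4% of all tested genes, 12.4% higher and 15.0% lower. The median log2 fold change of the 7 genes was −0.11, −0.10 and −0.14 in these 3 comparisons, and that of all tested genes was −0.01, 0.01 and −0.00. The values of the groups were fully apart for 2, 5 and 4 of the 7 genes, against 19.0%, 11.2% and 28.0% of all tested genes.

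**Figure D1:**
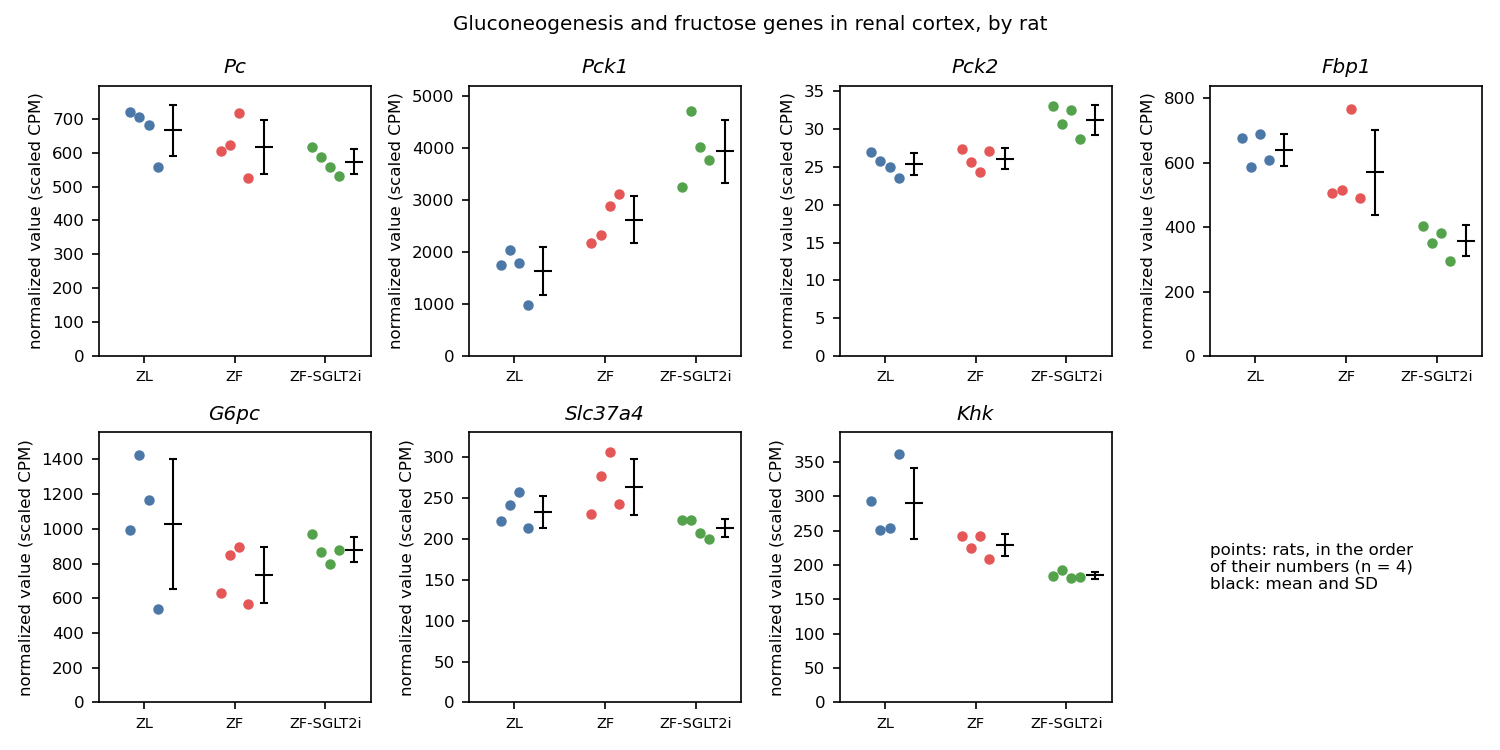
Normalized value (scaled CPM, vertical axes starting at 0) of each of the 7 genes in each rat of the ZL, ZF and ZF-SGLT2i groups; points are rats, and the black mark and bars are the mean and SD of 4 rats. Pck1 values rise from ZL (972 to 2043) to ZF-SGLT2i (3249.9 to 4712) without overlap between any of the groups, while Fbp1 and Khk values are lowest in ZF-SGLT2i.

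The stretches of DNA before a listed start site of Pck1, Fbp1 and Khk, the genes with the largest called differences, and of G6pc, whose product acts last in the pathway, are shown so that genes moving in different directions can be compared. They are the 250 bases before the RefSeq start site in the rat assembly GRCr8, read 5′ to 3′ on the gene's strand. Pck1 lies at chr3:182348322-182348571 (plus strand), Fbp1 at chr17:2213457-2213706 (plus strand), Khk at chr6:31175482-31175731 (minus strand) and G6pc, listed there as G6pc1, at chr10:86807409-86807658 (plus strand). The start sites of Pck1 and G6pc are the first base of the annotated gene, whereas those of Fbp1 and Khk lie 766 and 298 bases inside it, so the windows of Fbp1 and Khk fall within the annotated gene and not upstream of it. Capitals mark matches, on either strand, to motifs known from hormone-regulated promoters.
Pck1: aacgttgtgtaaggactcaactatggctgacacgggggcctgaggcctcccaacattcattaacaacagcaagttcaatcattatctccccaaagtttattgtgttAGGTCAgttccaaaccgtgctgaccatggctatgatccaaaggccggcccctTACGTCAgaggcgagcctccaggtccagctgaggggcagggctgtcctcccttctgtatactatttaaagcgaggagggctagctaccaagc
G6pc: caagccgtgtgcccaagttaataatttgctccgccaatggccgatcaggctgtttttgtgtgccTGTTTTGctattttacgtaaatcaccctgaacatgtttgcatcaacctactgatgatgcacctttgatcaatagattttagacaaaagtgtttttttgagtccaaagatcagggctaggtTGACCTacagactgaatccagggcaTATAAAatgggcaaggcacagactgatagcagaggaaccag
Fbp1: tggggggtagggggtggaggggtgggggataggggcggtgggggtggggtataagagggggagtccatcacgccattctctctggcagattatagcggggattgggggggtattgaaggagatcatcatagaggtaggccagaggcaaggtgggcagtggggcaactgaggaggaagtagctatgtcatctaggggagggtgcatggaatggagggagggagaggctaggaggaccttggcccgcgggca
Khk: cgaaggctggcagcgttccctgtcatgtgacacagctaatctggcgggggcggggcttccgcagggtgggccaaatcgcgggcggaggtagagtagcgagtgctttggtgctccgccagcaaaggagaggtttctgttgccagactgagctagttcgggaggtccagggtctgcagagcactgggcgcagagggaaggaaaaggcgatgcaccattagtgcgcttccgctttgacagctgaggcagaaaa
The letters searched on both strands were TACGTCA (cAMP response element), TATAAA (a core promoter box), TGTTTTG (a forkhead factor motif), TGTTTAC (another forkhead motif), CACGTG (E-box) and AGGTCA (nuclear receptor core). Pck1 held TACGTCA at −92 to −86 and AGGTCA at −144 to −139, counted from the start site. G6pc held TATAAA at −41 to −36, AGGTCA on the opposite strand at −66 to −61 and TGTTTTG at −186 to −180. No matches overlapped, and Fbp1 and Khk held none of these letters in the 250 bases, nor did Pck2 or either listed start of Slc37a4. Pc had no entry. Over the same window of all 33469 rat promoters in the table, TACGTCA was found in 1.6%, TATAAA in 12.9%, TGTTTTG in 5.46%, TGTTTAC in 3.21%, CACGTG in 5.59% and AGGTCA in 14.1%. The motifs were chosen with the sequences known, and a match is a description of letters, not of binding.

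Pyruvate carboxylase, which feeds pyruvate carbon into the pathway, had no called difference in the limma fit of all 12 rats. Pc values were 719, 707, 682 and 557 in the 4 ZL rats, 604, 623, 718 and 525 in ZF and 616, 587, 557 and 532 in ZF-SGLT2i. The groups overlapped in all comparisons. The log2 fold changes were −0.11 (95% interval −0.33 to 0.11) for ZF against ZL, −0.10 (−0.32 to 0.12) for ZF-SGLT2i against ZF and −0.21 (−0.43 to 0.01) for ZF-SGLT2i against ZL, none of them called (limma, adjusted p = 0.48, 0.67 and 0.14). Without ZL rat 4, Pc was called lower in ZF-SGLT2i than in ZL (−0.30, adjusted p = 0.035), and with array quality weights as well (−0.24, adjusted p = 0.043). Under scaling to proximal tubule markers Pc was called higher in ZF than in ZL (0.49, adjusted p = 0.0030) and in ZF-SGLT2i than in ZL (0.54, adjusted p = 0.00097), but lay 0.06 and 0.16 below the median of all genes there, and under quantile normalization both directions turned without a call.

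Pck1, the cytosolic carboxykinase and the classic regulated step of renal gluconeogenesis, gave the largest difference of the 7 genes. Its values were 1756, 2043, 1789 and 972 in ZL, 2169, 2327, 2883 and 3107 in ZF, and 3249.9, 4712, 4017 and 3774 in ZF-SGLT2i. Every ZF rat lay above every ZL rat, and every ZF-SGLT2i rat above every ZF rat, with ZL rat 4 far below the other lean rats. The means were 1639.9 ± 463, 2621 ± 446 and 3938 ± 607 (SD, n = 4 each). Pck1 was higher in ZF than in ZL by a log2 fold change of 0.71 ± 0.21 (SE), a 1.64-fold difference (limma, adjusted p = 0.029), and the exact permutation p was 0.0286, the smallest possible. In treated against untreated ZF rats the difference was 0.59 ± 0.21 on the log2 scale, or 1.51-fold, and was not called (adjusted p = 0.15; 0.041 by DESeq2 and 0.036 with array quality weights), although all 4 treated rats were above all 4 untreated ones (exact permutation p = 0.0286). Between ZF-SGLT2i and ZL it was 1.30 ± 0.21, or 2.47-fold (adjusted p = 0.00063). Without ZL rat 4 the log2 fold change of Pck1 in ZF against ZL was 0.48 (adjusted p = 0.048), and Pck1 was then called between ZF-SGLT2i and ZF as well (adjusted p = 0.032), since the 3 groups share their estimate of the spread. The call of Pck1 between ZF and ZL was lost without ZF rat 4 (adjusted p = 0.055) and without ZF rat 5 (adjusted p = 0.079), and in the fit of these 2 groups alone (adjusted p = 0.059).

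Pck2, the mitochondrial form of the same enzyme, had a much smaller difference. Its values were 27.0, 25.8, 24.9 and 23.6 in ZL, 27.4, 25.7, 24.3 and 27.1 in ZF, and 33.0, 30.7, 32.5 and 28.6 in ZF-SGLT2i. ZF and ZL rats overlapped throughout, and the 4 ZF-SGLT2i rats lay above all others. The log2 fold change of Pck2 was 0.04 ± 0.07 (SE) for ZF against ZL (limma, adjusted p = 0.72). For ZF-SGLT2i against ZF it was 0.25 ± 0.07, which was not called (adjusted p = 0.075; 0.037 with array quality weights). Between ZF-SGLT2i and ZL it was 0.29 ± 0.07, a 1.22-fold rise (adjusted p = 0.0082). Under scaling to proximal tubule markers, Pck2 was called higher in ZF than in ZL as well (0.62, adjusted p = 0.0013), at 0.07 above the median of all genes.

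Fbp1, the phosphatase that opposes phosphofructokinase, was lower in the treated rats. Its values were 676, 586, 688 and 607 in ZL, 507, 515, 768 and 490.1 in ZF, and 404, 351, 383 and 295 in ZF-SGLT2i. The treated rats lay below all others, and ZF rat 4 stood above the other 3 ZF rats and above all ZL rats. The means were 639.6 ± 50.3, 570.2 ± 132 and 358 ± 47.6 (SD, n = 4 each). Fbp1 fell between ZF and ZF-SGLT2i, with a log2 fold change of −0.65 ± 0.13 (SE) and a ratio of 0.636 (limma, adjusted p = 0.019), and it was negative in all 24 alternative settings, between −0.72 and −0.50. Between ZF-SGLT2i and ZL the log2 fold change was −0.84 ± 0.13 (adjusted p = 0.00065). Between ZF and ZL it was −0.19 ± 0.13 and was not called (adjusted p = 0.36), but without ZF rat 4 it was −0.34 and was called (adjusted p = 0.028), and under scaling to proximal tubule markers it was at 0.41 and called higher (adjusted p = 0.0074), −0.14 relative to the median of all genes. That scaling also ended the calls between ZF-SGLT2i and ZL (−0.09, adjusted p = 0.50) and after treatment (−0.51 in ZF-SGLT2i against ZF, adjusted p = 0.059), where Fbp1 was at −0.79 and −0.65 relative to that median. The call of Fbp1 between ZF-SGLT2i and ZF was lost without ZF-SGLT2i rat 3 (adjusted p = 0.056) or rat 6 (adjusted p = 0.061).

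G6pc, the catalytic subunit of glucose-6-phosphatase, varied most among the lean rats. Its values were 992, 1423, 1165 and 536 in ZL, 629.7, 848, 893 and 565 in ZF, and 972, 867, 800.4 and 879.8 in ZF-SGLT2i. The groups overlapped in every comparison, ZL rat 4 was the lowest of all 12 rats, and the coefficient of variation was 36.3% for ZL, 21.9% for ZF and 8.04% for ZF-SGLT2i, as a description. No comparison of G6pc was called, with log2 fold changes of −0.43 (95% interval −0.94 to 0.08), 0.28 (−0.22 to 0.79) and −0.14 (−0.65 to 0.37) in the same order of comparisons (limma, adjusted p = 0.23, 0.59 and 0.69). Each interval includes 0, so the sign of a G6pc difference was not detectable here. Without ZL rat 4, G6pc was called lower in ZF than in ZL, with a log2 fold change of −0.71 (adjusted p = 0.0099). Under scaling to proximal tubule markers G6pc was at 0.61 in ZF-SGLT2i against ZL (adjusted p = 0.019), −0.09 relative to the median of all genes.

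Slc37a4 carries glucose 6-phosphate into the endoplasmic reticulum, where G6pc acts. Its values were 222, 241, 257 and 213 in ZL, 231, 277, 306 and 242 in ZF, and 223, 223, 208 and 199.9 in ZF-SGLT2i. All treated rats lay below all ZF rats, and both groups overlapped with ZL. The log2 fold change of Slc37a4 was 0.17 ± 0.09 (SE) for ZF against ZL (limma, adjusted p = 0.19), −0.30 ± 0.09 for ZF-SGLT2i against ZF (adjusted p = 0.088) and −0.13 ± 0.09 for ZF-SGLT2i against ZL (adjusted p = 0.31), and none was called. For ZF against ZL, Slc37a4 was called higher under quantile normalization (0.29, adjusted p = 0.028) and under scaling to proximal tubule markers (0.77, adjusted p = 0.0002). Relative to the median of all genes the last value was 0.22. In ZF-SGLT2i against ZL that scaling gave 0.62 (adjusted p = 0.00039), −0.07 relative to the median, and for ZF-SGLT2i against ZF it was called lower by DESeq2 (adjusted p = 0.024) and with array quality weights (adjusted p = 0.047).

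Khk, the entry enzyme of fructose, was lowest in the treated rats and spread least there. Its values were 294, 251, 254 and 362 in ZL, 242, 225, 243 and 209 in ZF, and 184, 192, 182 and 183 in ZF-SGLT2i. The 3 groups did not overlap, and ZL rat 4 was the highest rat. The means were 290.0 ± 51.6, 229.6 ± 15.9 and 185 ± 4.85 (SD, n = 4 each). Khk was lower in ZF than in ZL by a log2 fold change of −0.32 ± 0.10 (SE; limma, adjusted p = 0.035), and under scaling to proximal tubule markers it was at 0.28 and called higher (adjusted p = 0.043), −0.27 relative to the median of all genes. Under quantile normalization it was −0.20 and was not called (adjusted p = 0.14). The call was also lost without ZL rat 1, ZL rat 4, ZF rat 2, ZF rat 3 or ZF rat 5, with adjusted p between 0.053 and 0.094. For treated against untreated ZF rats, Khk had a log2 fold change of −0.31 ± 0.10 and was not called (adjusted p = 0.11). It was called there without ZL rat 4 (adjusted p = 0.020), in the fit of these 2 groups alone (adjusted p = 0.018) and with array quality weights (adjusted p = 0.041). Between ZF-SGLT2i and ZL the log2 fold change was −0.63 ± 0.10, a ratio of 0.647 (adjusted p = 0.00056). Scaling to the marker mean or median ended the latter call (0.12, adjusted p = 0.36, and −0.14, adjusted p = 0.27), with Khk at −0.58 and −0.60 relative to the median of all genes.

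**Figure D2:**
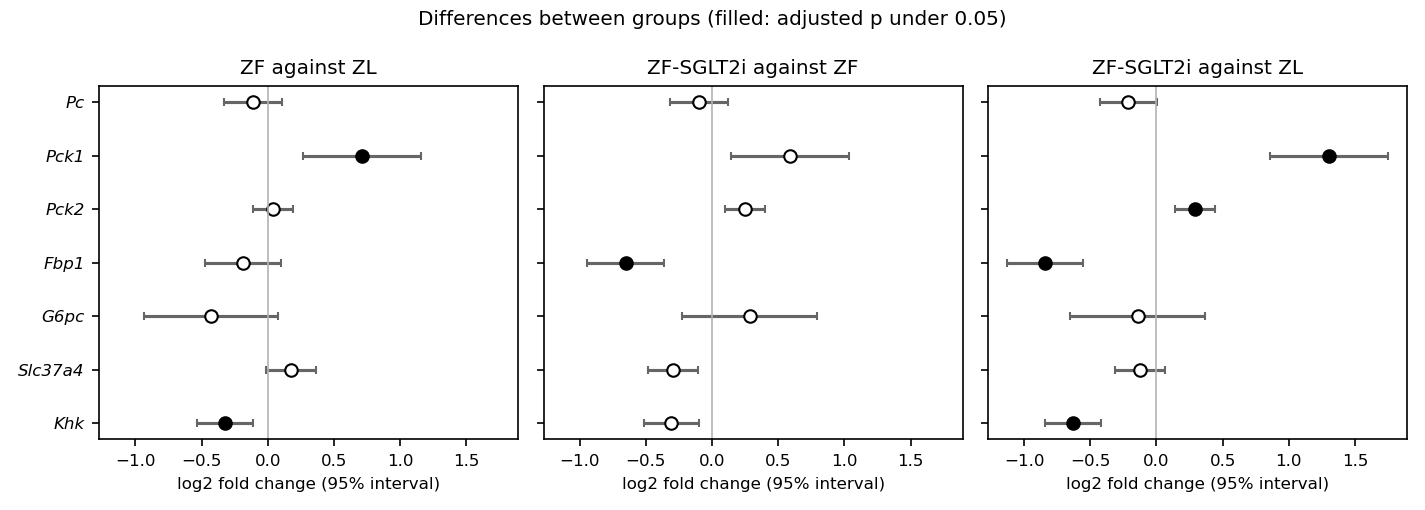
Log2 fold change (horizontal axis) with its 95% interval for each of the 7 genes in the 3 comparisons of groups (panels); filled points have an adjusted p below 0.05 in the limma fit. Pck1 lies to the right of 0 in all panels, with 1.30 for ZF-SGLT2i against ZL, and Fbp1 and Khk lie to the left, with −0.84 and −0.63; the Khk direction in ZF and in ZF-SGLT2i against ZL and the Fbp1 direction in ZF against ZL turn under scaling to proximal tubule markers.

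Ratios within a rat do not depend on how rats were scaled to each other, and they were formed after the values had been seen, so they are given without a test. The ratio of the Pck1 value to the Fbp1 value was 2.60, 3.48, 2.60 and 1.60 in the ZL rats, 4.27, 4.51, 3.76 and 6.34 in ZF and 8.04, 13.4, 10.5 and 12.8 in ZF-SGLT2i. The 3 groups did not overlap, and the means were 2.57 ± 0.770, 4.72 ± 1.12 and 11.2 ± 2.45 (SD, n = 4 each). The ratio of Pck1 to Khk averaged 5.96 ± 2.36, 11.5 ± 2.52 and 21.2 ± 2.85. The ratio of Pck1 to G6pc averaged 1.64 ± 0.182 for lean, 3.73 ± 1.22 for obese and 4.52 ± 0.918 for treated obese rats, and the ZF and ZF-SGLT2i rats overlapped. ZL rat 4, lowest for both Pck1 and G6pc, had a Pck1 to G6pc ratio of 1.81, near those of the other lean rats (1.44 to 1.77).

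The tissue was whole cortex, and in such samples fewer cells of a type and less RNA per cell cannot be told apart. The 16 proximal tubule markers fixed for the cells that carry these pathways, led by the endocytic receptor Lrp2 as the most abundant, were all present in every rat. Their summed value was 25077, 23021, 24819 and 24401 in ZL, 18337, 18056, 21778 and 16593 in ZF, and 18510.0, 16695, 17117 and 14205 in ZF-SGLT2i. ZL rats lay above all others, and ZF rat 4, the ZF rat with the highest Fbp1, also had the highest marker sum of its group. Of these markers, 1 was called higher and 7 lower between ZF and ZL (8.19% and 10.6% of all tested genes), 1 was called between ZF-SGLT2i and ZF (Slc22a6, lower; 1.75% of all tested genes), and the 9 called between ZF-SGLT2i and ZL were lower (15.0% of all tested genes). The SGLT2 gene itself, Slc5a2, had means of 426 ± 118, 460.1 ± 67.7 and 401 ± 29.4 (SD, n = 4 each) and was not called in any comparison (limma, adjusted p = 0.60, 0.62 and 0.87).

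**Figure D3:**
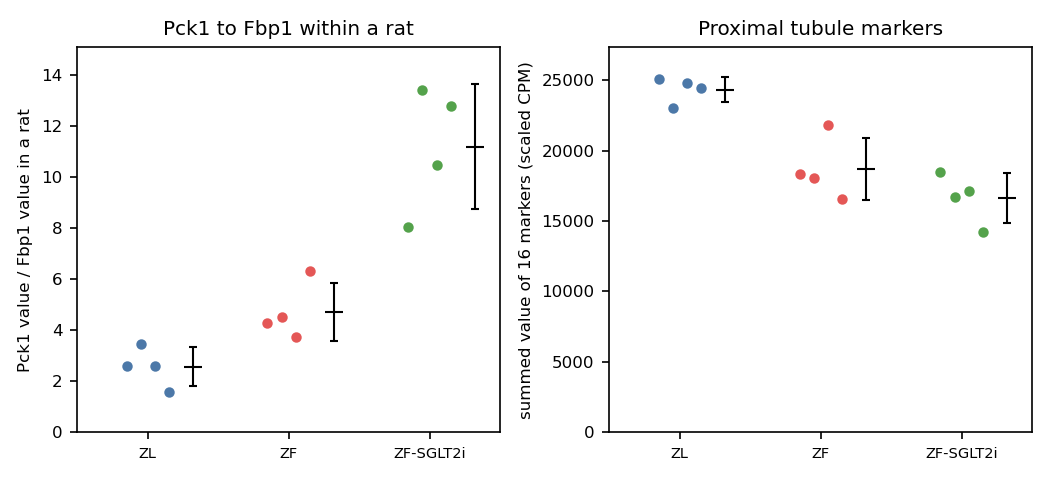
Left, the Pck1 value divided by the Fbp1 value in each rat; right, the summed value (scaled CPM) of 16 proximal tubule markers in each rat; both axes start at 0, points are rats, and the black mark and bars are the mean and SD of 4 rats. The ratio rises from 1.60 to 3.48 in ZL to 8.04 to 13.4 in ZF-SGLT2i, and the marker sum is 23021 or more in the ZL rats and 21778 or less in all others.

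When each rat was scaled by the mean log2 level of these 16 markers, the median of all tested genes moved to 0.55, 0.15 and 0.69 in the 3 comparisons. The mean is pulled by single markers, such as the amino acid transporter gene Slc7a13 (−3.98 for ZF against ZL and −4.73 for ZF-SGLT2i against ZL), while the median marker was at −0.26 and −0.39. With each rat scaled by the marker median instead, the median of all genes moved to 0.30, 0.15 and 0.46, and Khk was at 0.011 for ZF against ZL and at −0.14 for ZF-SGLT2i against ZL, neither called. On the scale of the marker mean Pck1 remained called higher in ZF than in ZL and in ZF-SGLT2i than in ZL, with log2 fold changes of 1.32 and 2.05, or 0.77 and 1.36 above the median of all genes. Fbp1 was at −0.51 for ZF-SGLT2i against ZF (adjusted p = 0.059) and at −0.09 for ZF-SGLT2i against ZL (adjusted p = 0.50), and Khk was at 0.28 for ZF against ZL (adjusted p = 0.043) and at 0.12 for ZF-SGLT2i against ZL (adjusted p = 0.36). Relative to the median of all genes, Fbp1 was at −0.65 and −0.79 and Khk at −0.27 and −0.58, positions that a single factor per rat could hardly change. The part of the lower marker levels in the lower Fbp1 and Khk was not tested.

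Markers of other cell types also moved. The shares of all tested genes called higher were 8.19% for ZF against ZL and 12.4% for ZF-SGLT2i against ZL, and 1.75% were called lower for ZF-SGLT2i against ZF. Of 11 markers of injured tubule in the table, 7 were called in ZF against ZL, all of these higher, and 6 were higher and 1 lower (Vcam1) in ZF-SGLT2i against ZL. The summed value of the list, with Spp1 as the most abundant by mean, ranged from 728 to 879 for lean, 1064 to 2439.7 for untreated obese and 936 to 1631 for treated rats. Of 8 collecting duct markers, 5 were called in ZF-SGLT2i against ZL, all of these higher, and the sum, with Aqp2 as the most abundant by mean, averaged 1976 ± 391 for ZL, 2176 ± 363 for ZF and 2936 ± 164 for ZF-SGLT2i rats. Of 5 tested fibroblast markers, 4 were called in ZF-SGLT2i against ZF, all of these lower, with sums of the list of 439.7 ± 79.3, 625 ± 139 and 351 ± 16.6. Of 7 podocyte markers, 3 were called higher in ZF than in ZL and 4 in ZF-SGLT2i than in ZL. Adipocytes also express Pck1, and the summed value of their 5 markers was 12.6 to 58.1 over the 12 rats. Adipoq, the most abundant by mean, averaged 13.9 ± 2.43, 11.0 ± 1.52 and 14.3 ± 1.67 in the 3 groups, Cidec averaged 22.1 ± 17.7, 4.12 ± 4.13 and 2.99 ± 1.03, and Plin1, Cfd or Fabp4 was at 0 in 6 rats. The part of these other cell types in the 7 genes was not tested.

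The sampling time of day is not given in the labels, and 3 of 4 clock genes that were looked up after results had been seen were called between ZF and ZL. Arntl, an activator of the clock, had values of 30.4 to 51.4 for lean, 1.42 to 7.01 for untreated obese and 1.82 to 2.86 for treated rats, and Dbp, one of its targets, 25.3 to 65.9, 182 to 297 and 257 to 334. Arntl was lower and Dbp higher in ZF than in ZL by log2 fold changes of −3.38 and 2.68. Nr1d1 was higher by 0.88, and Per1 was at 0.75 with overlapping groups and was not called (limma, adjusted p = 0.19). Between ZF-SGLT2i and ZL all 4 were called, with Arntl at −3.67, Dbp at 2.92, Nr1d1 at 0.97 and Per1 at 1.25 (adjusted p = 0.027 for Per1). Neither Arntl nor Dbp was called between ZF-SGLT2i and ZF (limma, adjusted p = 0.67 and 0.64). The part of this shift in the differences of the 7 genes between either obese group and ZL was not tested.

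The genes around the 7 were taken from lists of their pathway, drawn up by function. Earlier results of these data were known at that point, so the shares called are a description. Of 89 listed genes, 81 were in the table and 78 were tested. Between ZF and ZL, 8 were called higher and 13 lower, or 26.9% where 18.8% of all tested genes were called. Between ZF-SGLT2i and ZF, 6 were higher and 2 lower (10.3% against 3.15%), and between ZF-SGLT2i and ZL, 13 were higher and 22 lower (44.9% against 27.4%). The paralogs Fbp2 and G6pc3 were not called in any comparison by limma, edgeR or DESeq2, and 1 of them, G6pc3, had an unadjusted p below 0.05 between ZF and ZL.

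Fructose and polyol handling gave 1 lower and 2 higher calls between ZF and ZL and 5 lower and 1 higher between ZF-SGLT2i and ZL, of 8 tested genes, beside 18.8% and 27.4% of all tested genes, with a median log2 fold change of −0.51 in the latter. Between ZF-SGLT2i and ZF limma called 0 of the 8, edgeR 0 and DESeq2 1, and 4 had an unadjusted p below 0.05. The calls lower in ZF-SGLT2i than in ZL were Slc5a10 (−1.75 ± 0.36), Slc2a5 (−0.81 ± 0.26), Tkfc (−0.75 ± 0.12), Slc5a9 (−0.69 ± 0.12) and Sord (−0.33 ± 0.11), as log2 fold changes with their SE, where scaling to proximal tubule markers turned the direction of Slc5a9 and Sord and ended the calls of Tkfc (−0.0021, adjusted p = 0.99) and Slc2a5 (−0.067, adjusted p = 0.74). The Slc2a5 call was also lost with 1 of 6 rats left out, ZL rat 1, ZL rat 4 or any of the ZF-SGLT2i rats, at adjusted p between 0.055 and 0.086. That of Sord was lost without ZL rat 1, 2 or 3 or ZF-SGLT2i rat 3, 4 or 6 (adjusted p between 0.068 and 0.11) and under quantile normalization (adjusted p = 0.45). Slc2a5 is the fructose transporter GLUT5, Slc5a9 and Slc5a10 are sodium-coupled sugar transporters of the tubule, Tkfc phosphorylates the glyceraldehyde that fructose leaves, and Sord makes fructose from sorbitol. Khk and Tkfc, which act on the same route, had their lowest values in the same 4 rats, with Tkfc at 165 ± 18.9 in ZF-SGLT2i, 226 ± 23.4 in ZF and 279.6 ± 47.7 in ZL (SD, n = 4 each). Slc5a10 was low in all treated rats (20.7 to 39.5) and ranged from 56.6 to 191 in ZL. Slc2a2, the transporter GLUT2 that lets glucose and fructose cross the basolateral membrane, was higher in ZF than in ZL (0.55 ± 0.16; limma, adjusted p = 0.026) and was not called in the other comparisons. Its call was lost without ZL rat 1, ZL rat 4, ZF rat 3 or ZF rat 4 (adjusted p between 0.058 and 0.077). Akr1b1, aldose reductase, was higher in ZF than in ZL (0.31 ± 0.09) and in ZF-SGLT2i than in ZL (0.34 ± 0.09).

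**Figure D4:**
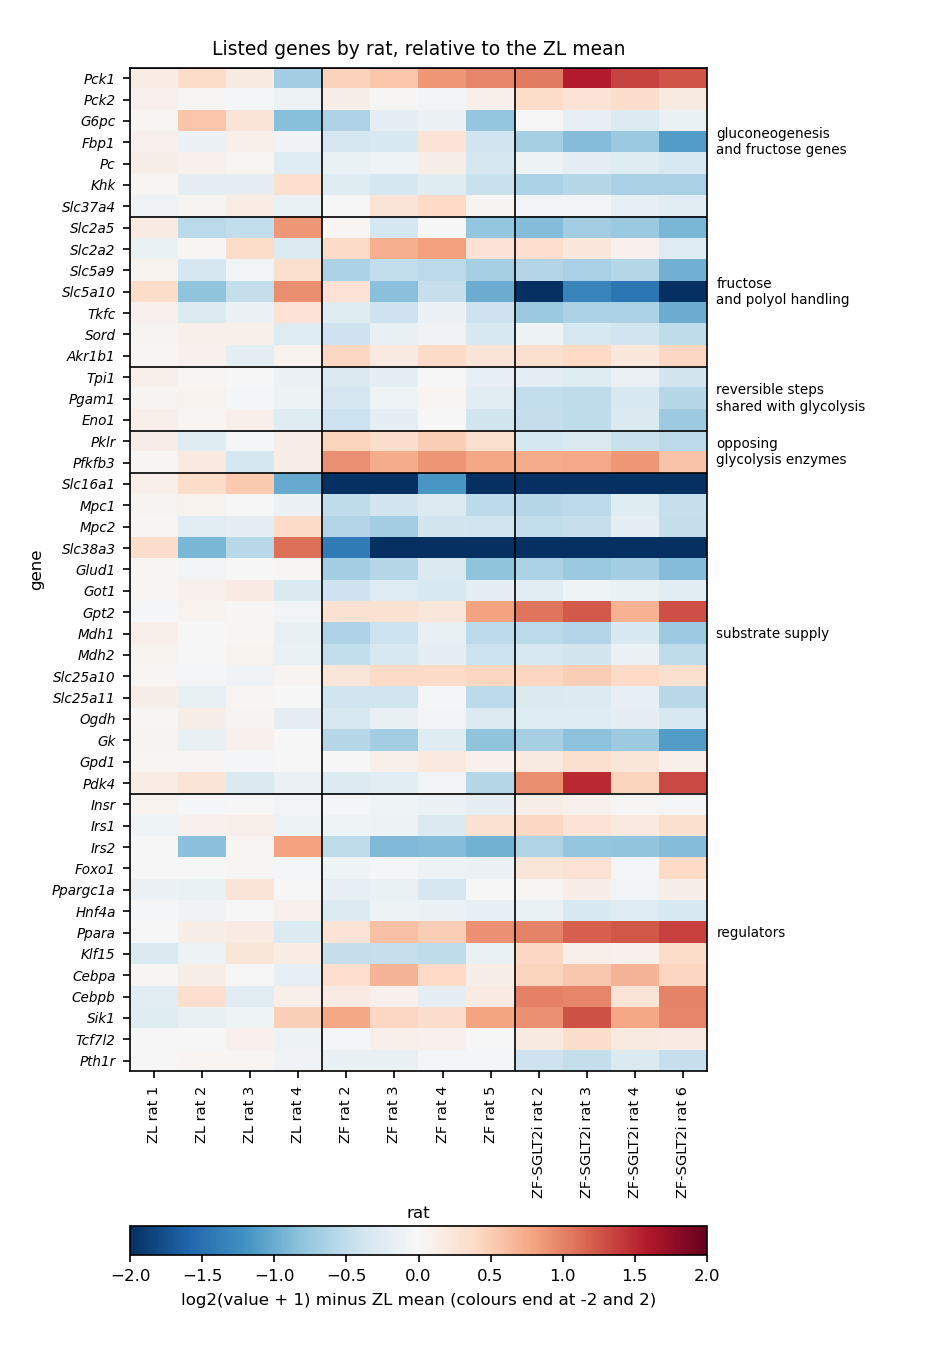
Log2(value + 1) of each gene (rows) in each rat (columns) minus the mean of the 4 ZL rats, for the 7 genes and for the called or role-defining genes of the lists of their pathway; colours end at −2 and 2. Pck1, Ppara, Gpt2 and Pdk4 are redder in ZF-SGLT2i than in ZL, and Slc16a1, Slc38a3, Slc5a10, Fbp1 and Khk are bluer, the Khk direction turning under scaling to proximal tubule markers.

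Of 10 tested genes of the reversible steps that gluconeogenesis shares with glycolysis, limma called 0 between ZF and ZL (2 at an unadjusted p below 0.05; edgeR and DESeq2 0) and 0 between ZF-SGLT2i and ZF (3 at an unadjusted p below 0.05; edgeR and DESeq2 1). Between ZF-SGLT2i and ZL, 3 were called lower, where 27.4% of all tested genes were called and 15.0% were called lower. They were Eno1 (−0.50 ± 0.12), Pgam1 (−0.47 ± 0.08) and Tpi1 (−0.23 ± 0.08), and all of these turned direction under scaling to proximal tubule markers. Under quantile normalization Tpi1 was at −0.081 and was not called (adjusted p = 0.37). Among 11 tested enzymes that drive glycolysis the other way, Pklr, the pyruvate kinase of liver and kidney that uses up the product of Pck1, was higher in ZF than in ZL (0.40 ± 0.09) and fell between ZF and ZF-SGLT2i (−0.81 ± 0.09; limma, adjusted p = 0.0004), to below the lean level (−0.41 ± 0.09, a direction that turned under scaling to proximal tubule markers). Its means were 68.7 ± 8.47, 90.6 ± 5.12 and 51.4 ± 3.99 (SD, n = 4 each). Pfkfb3, which makes the fructose 2,6-bisphosphate that inhibits Fbp1, was higher in ZF than in ZL (0.83 ± 0.11) and in ZF-SGLT2i than in ZL (0.74 ± 0.11).

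Of 27 tested genes of substrate supply, 1 was called higher and 10 lower between ZF and ZL (8.19% and 10.6% of all tested genes). Between ZF-SGLT2i and ZF, 2 were called, both higher (3.15% of all tested genes were called, 1.39% higher). Between ZF-SGLT2i and ZL, 4 were higher and 10 lower (12.4% and 15.0% of all tested genes). The median log2 fold change of the list was −0.20, −0.04 and −0.21, against −0.01, 0.01 and −0.00 over all tested genes. Slc16a1, the lactate and pyruvate transporter MCT1, dropped from 98.7 ± 38.3 in ZL to 22.2 ± 12.5 in ZF and was at 10.6 ± 1.88 in ZF-SGLT2i (log2 fold change −2.13 ± 0.34 for ZF against ZL and −3.01 ± 0.34 for ZF-SGLT2i against ZL). Slc38a3, the glutamine transporter SNAT3, dropped from 112 ± 71.4 to 24.3 ± 7.88 and was at 19.9 ± 1.19 (−1.99 ± 0.33 and −2.22 ± 0.33). Glud1, which takes glutamate to 2-oxoglutarate, fell by 0.58 ± 0.09 on the log2 scale in ZF against ZL and by 0.73 ± 0.09 in ZF-SGLT2i against ZL. The mitochondrial pyruvate carrier genes Mpc1 and Mpc2 (−0.42 ± 0.08 and −0.51 ± 0.13), glycerol kinase Gk (−0.58 ± 0.12), the malate dehydrogenases Mdh1 and Mdh2 (−0.43 ± 0.11 and −0.35 ± 0.09), the oxoglutarate carrier Slc25a11 (−0.34 ± 0.11) and the aminotransferase Got1 (−0.29 ± 0.09) were also lower in ZF than in ZL. All of these and Glud1, but not Slc16a1 or Slc38a3, turned direction under scaling to proximal tubule markers, as did Ogdh. Ogdh was lower in ZF-SGLT2i than in ZL (−0.25 ± 0.08), and Gpd1 was higher (0.21 ± 0.06). Under quantile normalization Ogdh was at −0.053 and was not called (adjusted p = 0.61).

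A few supply genes were called higher in some of the comparisons. The dicarboxylate carrier Slc25a10 was higher in ZF than in ZL (0.35 ± 0.06) and in ZF-SGLT2i than in ZL (0.41 ± 0.06). Gpt2, the mitochondrial alanine aminotransferase, rose between ZF and ZF-SGLT2i (0.66 ± 0.14; limma, adjusted p = 0.024), with means of 6.91 ± 0.303, 9.63 ± 2.12 and 15.8 ± 2.87. This call was lost without ZF rat 2, 3 or 4 or ZF-SGLT2i rat 2, 3 or 6 (adjusted p between 0.053 and 0.085). Under scaling to proximal tubule markers it was also lost, with a log2 fold change of 0.80 that was no smaller (adjusted p = 0.062). Pdk4, the kinase that shuts pyruvate dehydrogenase and so spares pyruvate, rose from 6.16 ± 1.02 in ZF to 17.4 ± 5.59 in ZF-SGLT2i (1.32 ± 0.20; adjusted p = 0.0032) and was at 7.69 ± 1.48 in ZL.

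Among 20 tested regulators, 3 were called higher and 2 lower between ZF and ZL, 4 higher and 1 lower between ZF-SGLT2i and ZF, and 7 higher and 3 lower between ZF-SGLT2i and ZL, beside 18.8%, 3.15% and 27.4% of all tested genes. Ppara, the fatty acid sensing receptor of the fasting response, followed the order of Pck1, with means of 45.0 ± 5.97 for ZL, 67.7 ± 12.6 for ZF and 105 ± 11.3 for ZF-SGLT2i rats (SD, n = 4 each), and was called in all 3 comparisons (0.57 ± 0.13, 0.64 ± 0.13 and 1.21 ± 0.13). Klf15, a factor known to drive amino acid use for gluconeogenesis, was lower in ZF than in ZL (−0.40 ± 0.12) and higher in ZF-SGLT2i than in ZF (0.64 ± 0.12). Foxo1, the forkhead factor that insulin restrains, and Cebpb rose between ZF and ZF-SGLT2i (0.31 ± 0.08 and 0.75 ± 0.17), and Pth1r, the parathyroid hormone receptor, fell (−0.32 ± 0.06). Cebpa (0.38 ± 0.10) and the kinase Sik1 (0.58 ± 0.16) were higher in ZF than in ZL, and Irs2, an adaptor of the insulin receptor (−0.80 ± 0.24), was lower. Irs1 and Tcf7l2 were called higher in ZF-SGLT2i than in ZL (0.30 ± 0.10 and 0.21 ± 0.07), and Hnf4a, a proximal tubule and liver factor, lower (−0.25 ± 0.07). Of these regulators, Klf15 in ZF against ZL and Hnf4a and Pth1r in ZF-SGLT2i against ZL turned direction under scaling to proximal tubule markers. Calls that this scaling ended include those of Pth1r (−0.18, adjusted p = 0.54) and Foxo1 (0.45, adjusted p = 0.18) between ZF-SGLT2i and ZF. They also include Irs2 in ZF against ZL (−0.20, adjusted p = 0.32) and in ZF-SGLT2i against ZL (−0.012, adjusted p = 0.95). Among the named pathway genes, the calls lost most often were those of Foxo1, Slc25a11 and Irs2, lost or turned in 25 of 48, 26 of 48 and 22 of 48 alternative values, and of Tcf7l2, lost in 12 of 24. Over all named genes of these lists, 27 of 64 calls were lost when some 1 rat was left out, at adjusted p between 0.050 and 0.14. Beside those given above they were Foxo1, Irs1, Tcf7l2, Slc25a11, Irs2, Mpc2, Tpi1, Ogdh, Mdh2, Hnf4a and Gpd1 in comparisons with ZF-SGLT2i, Cebpb and Ppara between ZF-SGLT2i and ZF, and Slc25a11, Irs2, Klf15, Got1, Sik1, Akr1b1, Cebpa, Mpc2 and Mdh1 between ZF and ZL. The insulin receptor gene Insr and the coactivator gene Ppargc1a were not called in any comparison.

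For each of the 7 genes, the 3 genes whose log2(value + 1) was most like it over the 12 rats were taken from 8631 genes with a mean of at least 10. The likeness is Pearson's r, given as a description, since rats share their group and their library scaling. For Pck1 they were Gpr160 (r = 0.956), Spint1 (0.946) and Degs2 (0.945), and for Pck2 Erbb2 (0.943), Rnf186 (0.907) and Dact2 (0.907). For G6pc they were Ranbp10 (0.907), Kcnj15 (0.881) and the sodium-coupled lactate transporter gene Slc5a12 (0.873), and for Pc Lamp1 (0.936), Spg21 (0.931) and Napsa (0.923). Fbp1 was nearest to Timp3 (0.961), the angiotensin receptor gene Agtr1a (0.961) and Mfsd1 (0.960). Khk was nearest to Atp11a (0.991), Abcb6 (0.980) and Nomo1 (0.978), and Slc37a4 to Tbl1xr1 (0.956), Nacc2 (0.907) and Fam134b (0.902). None of the 7 genes was among the 3 nearest of another.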

How the data were processed

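Total RNA from renal cortex was depleted of ribosomal RNA and sequenced from both ends as strand-keeping libraries. By the submitters' processing notes, Trimmomatic 0.38, Bowtie2, RSEM 1.3.0 and edgeR were used with the rat build rn6. The authors deposited 1 table of normalized signal values for 13151 genes and 12 rats, with no column of another sample. The values were CPM with edgeR's TMM factors, so whole reads could be recovered in all 12 rats (100% of values within 0.001 of a whole read). In ZF rat 3 and ZF-SGLT2i rats 3 and 4 the value of 1 read lies close to a power of 10, where rounded decimals would look alike, so the reads of these 3 rats, used by edgeR and DESeq2, are less certain. Every pair of rats within a group differed beyond counting noise.

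The main test was limma 3.58.1 in R 4.3.3 (eBayes with trend, two-sided) on log2(value + 1) with all 12 rats, keeping genes that reached 1 in 4 or more rats (11633 tested, 1518 not), adjusted by Benjamini-Hochberg and called below 0.05. Adding 1 understates the change of low genes. The exact permutation test compared mean log2(value + 1) of 4 rats against 4. The scripts were tested on simulated data. Alternatives were a pseudocount of 0.1, no filter, a minimum mean of 10, quantile normalization, median-ratio rescaling, scaling to proximal tubule markers, a fit of the 2 groups alone, a replicate block, array quality weights, edgeR 4.0.16 and DESeq2 1.42.0 on the recovered reads, and each rat left out. A scaling to the markers' median was added after the data had been seen. The replicate block, by rat number, leaves out ZL rat 1, ZF rat 5 and ZF-SGLT2i rat 6, whose numbers occur in no other group.

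The 7 genes, the gene lists and the motifs were chosen with earlier results of these data known. The genes named beside the 7 are those called in any comparison, genes that define the role of a list, and the 3 nearest patterns. Some genes of these lists are not reported here. Marker genes were named as examples, and clock genes after their values were seen. p-values measure the spread between 4 rats. Reads shared by near-identical genes could not be separated. Promoter sequences are RefSeq's on GRCr8, matched by symbol for 6 of the 7 genes (not Pc). No genome sequence of rn6 was used here.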

Additional observations from a re-analysis of the deposited data

Results flagged for a closer look

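In 144 groups of 4 rats, formed by 48 named genes in 3 groups, 8 values, from 6 rats, stood apart from the other 3 of their group by Dixon's criterion, where chance alone gives about 7.2. Among the 7 genes of glucose production and fructose entry, 1 of 21 groups was marked in this way, Fbp1 in ZF rat 4, at 767.6 against 490.1 to 515.5 in the other ZF rats. The same rat had the highest sum of proximal tubule markers of its group (21778 against 16593 to 18337), whose part in this value was not tested.

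Among the pathway genes, Sord was at 499.4 in ZL rat 4 (615.3 to 638.6 in the others), Gpt2 at 12.79 in ZF rat 5 (8.205 to 8.82), Klf15 at 84.28 in ZF rat 5 (65.04 to 66.85) and Irs2 at 167.4 in ZF rat 2 (124.1 to 130.3). Among ZF-SGLT2i rats, Mpc2 was at 25.66 (20.57 to 21.1) and Cebpb at 22.84 (38.46 to 39.23) in rat 4, and Tcf7l2 was at 24.73 in rat 3 (21.62 to 21.9). ZL rat 4, which was low for Pck1 and G6pc and high for Khk, was not marked for any of these 3 genes.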

How the results depend on the processing

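Under a pseudocount of 0.1, no filter, a mean of at least 10, median ratio rescaling and edgeR, the 21 log2 fold changes of the 7 genes kept their direction and their side of the threshold. Quantile normalization changed the split of called genes between ZF and ZL from 953 higher and 1232 lower to 1109 higher and 943 lower. It also ended the call of Khk in ZF against ZL (−0.20, adjusted p = 0.14) and gave one to Slc37a4 (0.29, adjusted p = 0.028). Of the 64 calls of other named genes, quantile normalization ended 15. They include Got1, Mdh1, Mdh2, Slc25a11 and Irs2 in ZF against ZL, and Sord, Tpi1, Ogdh, Mdh2, Slc25a11 and Irs2 in ZF-SGLT2i against ZL. Scaling to proximal tubule markers gave calls in ZF against ZL to Slc37a4 (0.77, and 0.51 by the marker median) and Pck2 (0.62 and 0.36), and 6 of the 9 turned values of the 7 genes and 9 of 25 of the other named genes were called (2 of 7 and 3 of 12 by the marker median). All of these turned values lay on the same side of the median of all genes as before, which a single factor per rat could hardly change. The 7 genes had at least 220 reads in every rat, and precision also rests on 4 rats a group. Causes of the changes below were not tested.

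In the counts below, the replicate block leaves out the rats whose number occurs in a single group. Genes called between ZF and ZL numbered 2185, and 9629 under proximal tubule marker scaling (9478 higher and 151 lower), 5971 under the marker median scaling (5697 and 274, added after seeing the data) and 807 with a replicate block. Between ZF-SGLT2i and ZF they numbered 366, and 153 under marker scaling (109 higher and 44 lower; 291 and 72 by the marker median), 223 with a replicate block, 689 with array quality weights and 641 with DESeq2. Between ZF-SGLT2i and ZL they numbered 3184, and 10313 (10160 higher and 153 lower) and 8840 (8555 and 285) under the marker scalings and 1502 with a replicate block. Of the 7 genes, 2 were called between ZF and ZL, 6 under marker scaling, 0 in the fit of the 2 groups alone and 0 with a replicate block (limma, where Pck1 and Khk had an unadjusted p below 0.05 in the fit reported). Between ZF-SGLT2i and ZF 1 was called, and 0 under marker scaling, 2 in the fit of the 2 groups alone, 0 with a replicate block, 5 with array quality weights and 3 with DESeq2. With each rat left out, the called genes ranged from 1389 to 2453, 176 to 570 and 2241 to 3302 in the 3 comparisons, and the called genes among the 7 from 0 to 2, 0 to 3 and 4 to 5. All called genes between ZF and ZL numbered 1389 without ZL rat 1, 1451 without ZF rat 2 and 1426 without ZF rat 3. For treated against untreated ZF rats they numbered 176, 210 and 182 without ZF-SGLT2i rats 3, 4 and 6, 207, 184 and 187 without ZF rats 2, 3 and 4, and 570 without ZF rat 5. Of the 7 genes, 0 were called between ZF and ZL without ZF rat 5, and between ZF-SGLT2i and ZF 0 without ZF-SGLT2i rat 3 or 6 and 3 without ZL rat 4 (limma).

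Under proximal tubule marker scaling, log2 fold changes turned for ZF against ZL in G6pc (0.18), Fbp1 (0.41), Pc (0.49), Khk (0.28), Slc5a9 (0.0015), Mpc1 (0.18), Mpc2 (0.072), Glud1 (0.019), Got1 (0.31), Mdh1 (0.17), Mdh2 (0.25), Slc25a11 (0.26), Gk (0.025) and Klf15 (0.20), and for ZF-SGLT2i against ZF in Pc (0.047). For ZF-SGLT2i against ZL they turned in G6pc (0.61), Pc (0.54), Khk (0.12), Slc37a4 (0.62), Slc5a9 (0.039), Sord (0.42), Tpi1 (0.52), Pgam1 (0.28), Eno1 (0.25), Pklr (0.33), Mpc1 (0.29), Mpc2 (0.32), Glud1 (0.020), Mdh1 (0.21), Mdh2 (0.42), Slc25a11 (0.43), Ogdh (0.50), Hnf4a (0.50) and Pth1r (0.34). Under the marker median scaling they turned for ZF against ZL in Fbp1 (0.15), Pc (0.22), Khk (0.011) and Got1 (0.045), for ZF-SGLT2i against ZF in Pc (0.056), and for ZF-SGLT2i against ZL in G6pc (0.35), Pc (0.28), Slc37a4 (0.36), Sord (0.16), Tpi1 (0.26), Pgam1 (0.024), Pklr (0.077), Mpc1 (0.034), Mpc2 (0.066), Mdh2 (0.16), Slc25a11 (0.17), Ogdh (0.24), Hnf4a (0.24) and Pth1r (0.079). Under quantile normalization Fbp1 (0.024) and Pc (0.090) turned for ZF against ZL and G6pc (0.063) and Pc (0.017) for ZF-SGLT2i against ZL. With each rat left out, G6pc in ZF-SGLT2i against ZL ranged from −0.43 (without ZL rat 4) to 0.041 (without ZL rat 2).

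Rat numbers recur between groups but belong to different rats. Deviations of same-numbered rats correlated between −0.376 and 0.253 over 9 pairs, and 2 were over 0.1. Pairs with different numbers lay between −0.402 and 0.455. These values cannot show whether same-numbered rats were handled together. The numbers of ZL rat 1, ZF rat 5 and ZF-SGLT2i rat 6 occur in no other group, so the replicate block takes these rats out of the comparisons. What remains compares unrelated rats matched by number, with fewer rats a group. With this block, Pck1 in ZF against ZL (0.68, limma, adjusted p = 0.17), Fbp1 in ZF-SGLT2i against ZF (−0.63, adjusted p = 0.082) and Khk in ZF against ZL (−0.27, adjusted p = 0.19) were not called. Pc in ZF against ZL was at 0.0030. All 4 calls between ZF-SGLT2i and ZL held with the block.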

Other observations

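Endothelial markers were called higher for 1 of 7 genes between ZF and ZL and for 2 of 7 between ZF-SGLT2i and ZL. Of all tested genes, 8.19% and 12.4% were called higher there. Of 8 tested markers of the thick limb and distal tubule, 1 was higher and 1 lower between ZF and ZL, and 2 were higher and 2 lower between ZF-SGLT2i and ZL, beside 8.19% higher and 10.6% lower, and 12.4% and 15.0%, of all tested genes. Of 6 tested macrophage markers, limma, edgeR and DESeq2 called 0 in each comparison, and 2, 1 and 0 had an unadjusted p below 0.05. Of 2 tested blood markers, limma called 0, edgeR 1 between ZF-SGLT2i and ZL, and DESeq2 1 in each comparison. The summed blood markers were nearly all Slc4a1, which collecting duct cells also express.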
